A study of Syringa oblata with 2 samples.

Results

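The unigenes described here make up the terpenoid backbone pathway of *Syringa oblata* leaves, the routes that build the isoprene units of all terpenoids and join them into longer chains. They were chosen from the KEGG annotation of the assembly as the unigenes with the entry for terpenoid backbone biosynthesis. Of 169 such unigenes, 6 that also carried the entry for sesquiterpenoid and triterpenoid biosynthesis and 30 whose best match in the Nr protein database was rice (*Oryza*) were dropped, which left 133 of the 73159 unigenes of the table. A unigene is the longest transcript kept for a gene of the Trinity assembly, and the unigenes of a Trinity component, whose IDs share their start, can be copies, alleles or fragments of a gene. By Swiss-Prot name, 20 members were enzymes of the plastid MEP route, 23 of the cytosolic mevalonate route, and 26 were isopentenyl diphosphate isomerases or prenyl diphosphate synthases. A further 16 were enzymes of protein prenylation or of farnesol and phytol side reactions, 27 carried other names and 21 had no Swiss-Prot name.

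*S. oblata*, a lilac of the olive family (Oleaceae), was grown under natural light (Z0) or beneath black nets that cut the light by 40% to 50%, which left an intensity of 50% to 60% (Z1). RNA from leaves was sequenced in 2 libraries per condition, Z0-1 and Z0-2 against Z1-1 and Z1-2, which the study calls biological repeats. Both conditions used trees of the same species, and no source says which trees went into which library. RNA is described in the extraction text, although the molecule field of the labels says genomic DNA, and the values were read as RNA levels.

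Plants make the isoprene unit, isopentenyl diphosphate, by separate routes. The methylerythritol phosphate (MEP) route starts from pyruvate and a triose phosphate in the plastid and feeds carotenoids, the phytol tail of chlorophyll, plastoquinone and monoterpenes. The mevalonate route starts from acetyl-CoA in the cytosol and feeds sterols, sesquiterpenes and dolichols, and its reductase HMGR is known as a main point of control. Prenyl diphosphate synthases then condense the units into geranyl, farnesyl, geranylgeranyl and longer diphosphates.

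The authors' table gives TPM, a length-corrected share of transcripts, which sum to nearly the same total in each library and keep no record of the reads, so depth is unknown. Levels were compared as log2(TPM + 1) with limma over all 73159 unigenes. A member was called higher or lower in Z1 where its p, adjusted by Benjamini-Hochberg over all unigenes, was under 0.05 and its level differed by over 2-fold. On this scale low unigenes show less than their true change, and with 2 libraries against 2 an exact permutation test cannot reach 0.05. As nothing ties a library to its trees, the p-values cover no more than the spread of these 4 libraries, which may be technical. Z0-1 and Z1-2 stand apart: 10 carlavirus-matched unigenes held 22.8% of the TPM in Z0-1 and 13.9% in Z0-2 against at most 0.147% in Z1, and rice-matched unigenes held 3.30% of Z1-2 against at most 0.296% in the others. Light, the trees sampled and the virus level follow the same split of the libraries and cannot be told apart. In a leaf sample, fewer cells of a type and less RNA per cell cannot be told apart either.

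The members as a group took 0.295% and 0.363% of the TPM in Z0-1 and Z0-2, against 0.486% and 0.436% in Z1-1 and Z1-2. Of the 133 members, 4 were called higher in Z1 and 4 lower, where 3.20% of all unigenes were called higher and 1.80% lower, so the members were called about as often as other unigenes. The median log2 fold change of the members was 0.45, the same as that of all unigenes (0.45). Both Z1 libraries lay above both Z0 libraries in 71 members, against 41.5% of all unigenes, and both Z0 libraries lay above both Z1 libraries in 17, against 18.2%. With each library left out in turn, all 8 called members kept their direction, as they had to, since their conditions did not overlap. A condition then holds a single library, so how far the calls depend on single libraries cannot be stated. TMM scaling, which assumes that most unigenes do not differ, moved the median of all unigenes from 0.45 to 0.13 and that of the members to 0.02, with 1.81% of all unigenes called higher and 3.09% lower. Median ratio scaling called 2.12% higher and 2.48% lower, and leaving out carlavirus-matched unigenes 2.18% and 2.48%. At an unadjusted p under 0.05 from limma and the same fold threshold, 33 members were higher and 7 lower, where 16.5% and 7.71% of all unigenes were. The lists of enzymes differed in where their fold changes lay. The median was 1.40 for the mevalonate steps, -0.06 for the MEP steps, 0.22 for the isomerase and prenyl diphosphate synthases and 0.67 for protein prenylation and side enzymes. With TMM scaling it was 1.03 for the mevalonate steps, -0.52 for the MEP steps and -0.19 for the isomerase and prenyl diphosphate synthases. The difference between the lists was described and not tested.

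**Figure D1:**
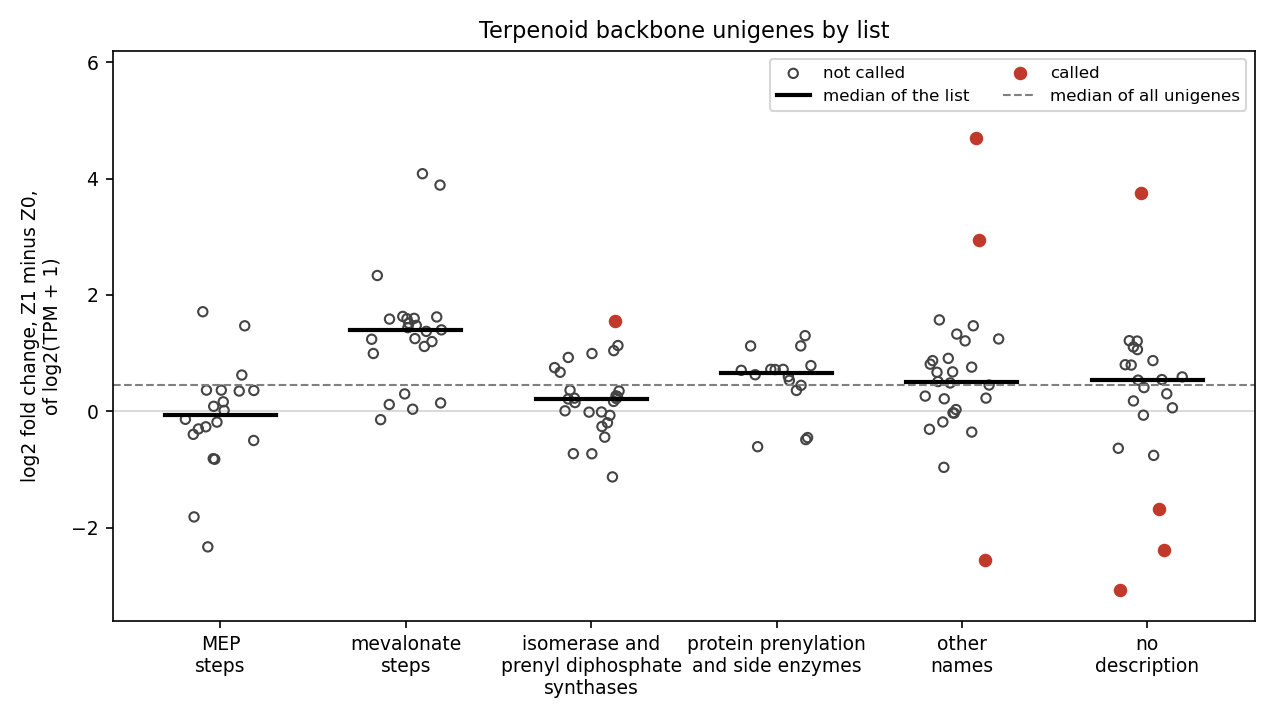
Log2 fold change of each of the 133 terpenoid backbone unigenes (Z1 minus Z0, on the log2(TPM + 1) scale), by list of enzymes. Open points were not called, filled points were called, bars are list medians and the dashed line is the median of all unigenes (0.45). The mevalonate list sits around 1.40 with no called member and the MEP list around -0.06.

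The mevalonate route was the list in which the members leaned most to one side. Of its 23 unigenes, 22 had a fold change above 0 and 1 below, and both Z1 libraries lay above both Z0 libraries in 19, with 4 that overlapped and 0 in the reverse order, against 41.5%, 40.3% and 18.2% of all unigenes. None passed the threshold after adjustment over all unigenes with limma, where 3.20% of all unigenes were called higher and 1.80% lower. At an unadjusted p under 0.05 with a fold change over 2, 17 were higher and 0 lower, where 16.5% and 7.71% of all unigenes were. The outcome depended on which unigenes were tested together. Among the 20230 unigenes with at least 5 TPM in 2 libraries, 10 of the mevalonate unigenes were called higher, where 18.2% of the unigenes tested were called higher and 6.48% lower: 3 HMGR, 4 HMGS and an AACT, MVK and MVD each. Of these 10, DN35688_c0_g3 and DN31467_c0_g4 reached 5 TPM in the Z1 libraries only, so they passed the filter through the condition where they were higher, and the count is no support for a difference of the list. Without rice-matched unigenes 4 were called, against 8.20% called higher and 3.90% called lower among those tested. Summed over the list, the mevalonate unigenes reached 238 TPM in Z0-1 and 452 in Z0-2, against 1691 in Z1-1 and 870.4 in Z1-2. Each Z1 sum thus lay above both Z0 sums, and the ratio of the condition means was 3.71. Without Z0-1 that ratio was 2.83, without Z0-2 it was 5.37, without Z1-1 it was 2.52 and without Z1-2 it was 4.90. With TMM scaling the sums were 298, 498, 1474 and 726 in the same order of libraries. The repeats themselves were far apart: 21 of the 23 unigenes were higher in Z0-2 than in Z0-1, and 21 were higher in Z1-1 than in Z1-2. Both orders held in 19 of 23, against 21037 of all 73159 unigenes.

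HMGR, hydroxymethylglutaryl-CoA reductase, makes mevalonate and is the step named as the control point above. Its 6 unigenes summed to 46.5 TPM in Z0-1 and 85.6 in Z0-2, against 802 in Z1-1 and 264 in Z1-2, a ratio of means of 8.07. The ratio was 6.23 without Z0-1, 11.5 without Z0-2, 4.0 without Z1-1 and 12.1 without Z1-2. A pair of these unigenes, both with an HMGR of the related jasmine *Jasminum sambac* as best Nr match, carried most of the Z1 signal. DN36191_c0_g1 had 10.3 TPM in Z0-1 and 23.0 in Z0-2, against 427 in Z1-1 and 138 in Z1-2. DN35551_c0_g1, named HMGR2, had 5.13 TPM in Z0-1 and 11.2 in Z0-2, against 294 in Z1-1 and 71.8 in Z1-2. In each of them the lower Z1 library was several times the higher Z0 library, and Z1-1 was in turn several times Z1-2. The log2 fold change was 3.89 ± 0.67 (SE, n = 2 per condition) for DN36191_c0_g1, with an adjusted p of 0.0517 from limma. For DN35551_c0_g1 it was 4.09 ± 0.77 (SE, n = 2 per condition), with an adjusted p of 0.0573 from limma. Leaving out each library in turn gave 3.08 to 4.70 for DN36191_c0_g1 and 3.08 to 5.09 for DN35551_c0_g1. The pair held 33.3% and 39.9% of the HMGR signal in Z0-1 and Z0-2, against 90.0% and 79.6% in Z1-1 and Z1-2. It was taken as the 2 HMGR unigenes highest in Z1, a choice that by itself favours a larger share in Z1.

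The other HMGR unigenes differed less between the conditions. DN28221_c0_g1 had the same order of libraries as the pair, with a smaller log2 fold change of 1.51. It had 9.16 TPM in Z0-1 and 17.4 in Z0-2, against 49.2 in Z1-1 and 29.3 in Z1-2. DN28257_c0_g1 had 11.7, 18.6, 17.7 and 14.6 TPM in the same order of libraries, and its conditions overlapped. DN36191_c0_g3 and DN36191_c0_g4, of the same Trinity component as the most abundant HMGR, also overlapped between conditions, with log2 fold changes of -0.14 and 0.14. The component of DN36191_c0_g1, 5 unigenes of which 3 were members, summed to 29.4 and 40.0 TPM in Z0 against 479 and 178 in Z1, so no other unigene of the component offset the higher Z1 values of DN36191_c0_g1. DN35551_c0_g1 was the only unigene of its component. Without the pair, HMGR summed to 31.0 and 51.4 TPM in Z0 against 80.4 and 54.0 in Z1, and the whole mevalonate list to 223 and 418 TPM in Z0 against 969 and 660.3 in Z1. The order of the libraries in the list was thus kept without these 2 unigenes.

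**Figure D2:**
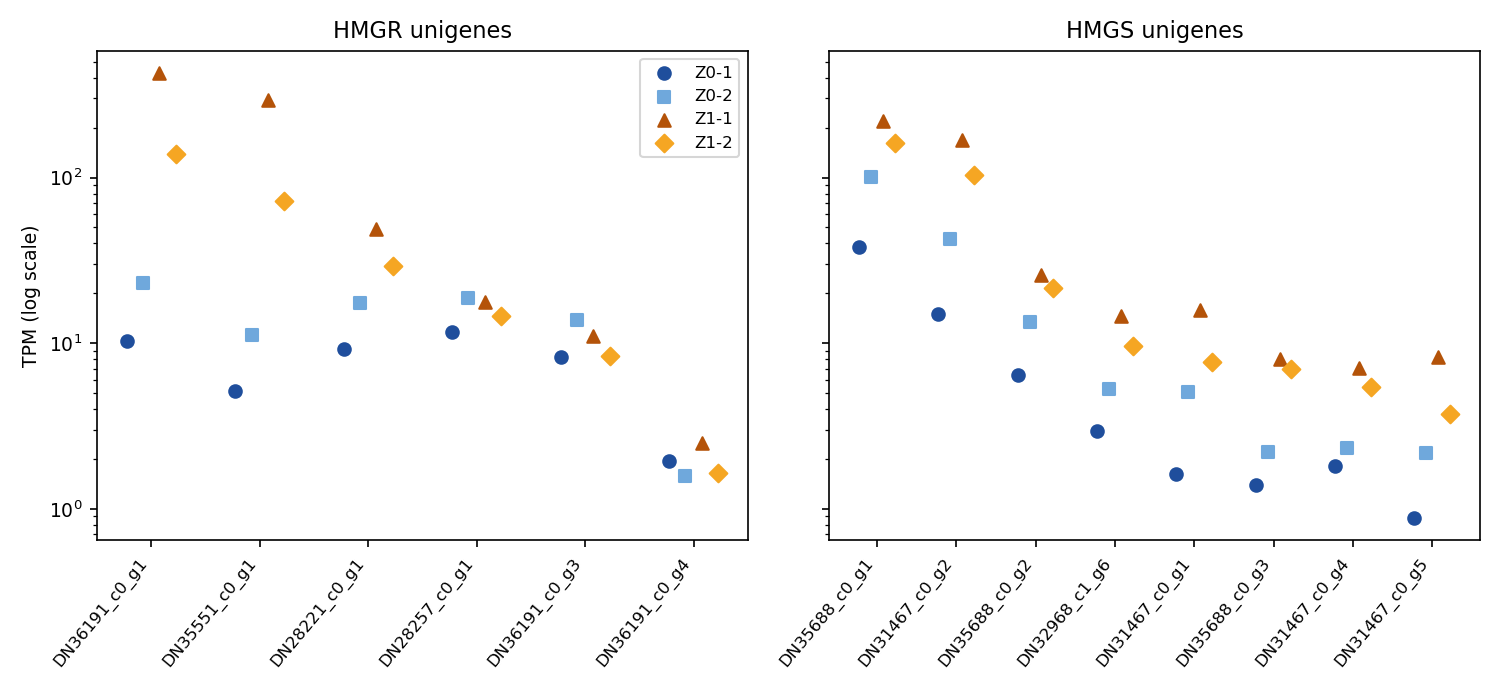
TPM (log axis) of the 6 HMGR and 8 HMGS unigenes in each of the 4 libraries. DN36191_c0_g1 and DN35551_c0_g1 reach 427 and 294 TPM in Z1-1 from at most 23.0 TPM in Z0, and 3 HMGR unigenes overlap between conditions. All 8 HMGS unigenes have both Z1 points above both Z0 points, an order that 41.5% of all unigenes share.

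HMGS, the synthase that forms hydroxymethylglutaryl-CoA one step earlier, showed the same order of libraries in all 8 of its unigenes, with Z0-1 lowest and Z1-1 highest in each. Both Z1 libraries lay above both Z0 libraries in 41.5% of all unigenes. Summed, HMGS had 67.8 TPM in Z0-1 and 174 in Z0-2, against 466 in Z1-1 and 321 in Z1-2. DN35688_c0_g1 was the most abundant, with 37.8, 101, 219 and 162 TPM in that order. DN31467_c0_g2 had 14.9 and 42.5 TPM in Z0 against 167 and 104 in Z1, a log2 fold change of 2.34 ± 0.56 (SE, n = 2 per condition; limma adjusted p = 0.0818). DN35688_c0_g2 had 6.38 and 13.4 TPM in Z0 against 25.8 and 21.5 in Z1, and DN32968_c1_g6 had 2.93 and 5.31 in Z0 against 14.7 and 9.63 in Z1. Among the low ones, DN35688_c0_g3 was closest to the threshold, with 1.39 and 2.19 TPM in Z0 against 8.06 and 6.98 TPM in Z1 (log2 fold change 1.62 ± 0.27, SE, n = 2 per condition; limma adjusted p = 0.0509). The 8 HMGS unigenes lay in 3 components, and reads shared between the unigenes of a component cannot be told apart in TPM.

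Acetyl-CoA acetyltransferase (AACT), which opens the route by joining acetyl-CoA units, had 4 unigenes. Each had both Z1 libraries above both Z0 libraries, as did 41.5% of all unigenes. DN34498_c0_g1 had 33.98 TPM in Z0-1 and 59.8 in Z0-2, against 113 in Z1-1 and 86.8 in Z1-2. DN36270_c1_g2 had 20.2, 34.5, 120.2 and 54.8 TPM in the same order. Its neighbour in the component, DN36270_c1_g1, differed far less, with 29.1 and 31.9 TPM in Z0 against 36.8 and 38.6 in Z1. The log2 fold changes of these 3 were 1.12, 1.59 and 0.30.

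After HMGR, the steps from mevalonate to isopentenyl diphosphate differed from each other. Mevalonate kinase (MVK), the first of them, was represented by DN37618_c0_g1 with 16.2 TPM in Z0-1 and 20.4 in Z0-2, against 60.8 in Z1-1 and 45.03 in Z1-2. Its log2 fold change was 1.48 ± 0.26 (SE, n = 2 per condition), with an adjusted p of 0.0524 from limma. The decarboxylase that ends the route, MVD, was represented by DN31024_c0_g1 with 10.3, 19.7, 61.6 and 34.7 TPM and a log2 fold change of 1.63. Phosphomevalonate kinase (PMK), which acts between them, had a single unigene, DN36483_c0_g1, with 11.9 TPM in Z0-1 and 22.7 in Z0-2, against 19.3 in Z1-1 and 14.7 in Z1-2. Both Z1 values of PMK lay between the Z0 values, and its log2 fold change was 0.04 ± 0.37 (SE, n = 2 per condition). PMK was the only enzyme of the route whose summed level did not separate the conditions.

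**Figure D3:**
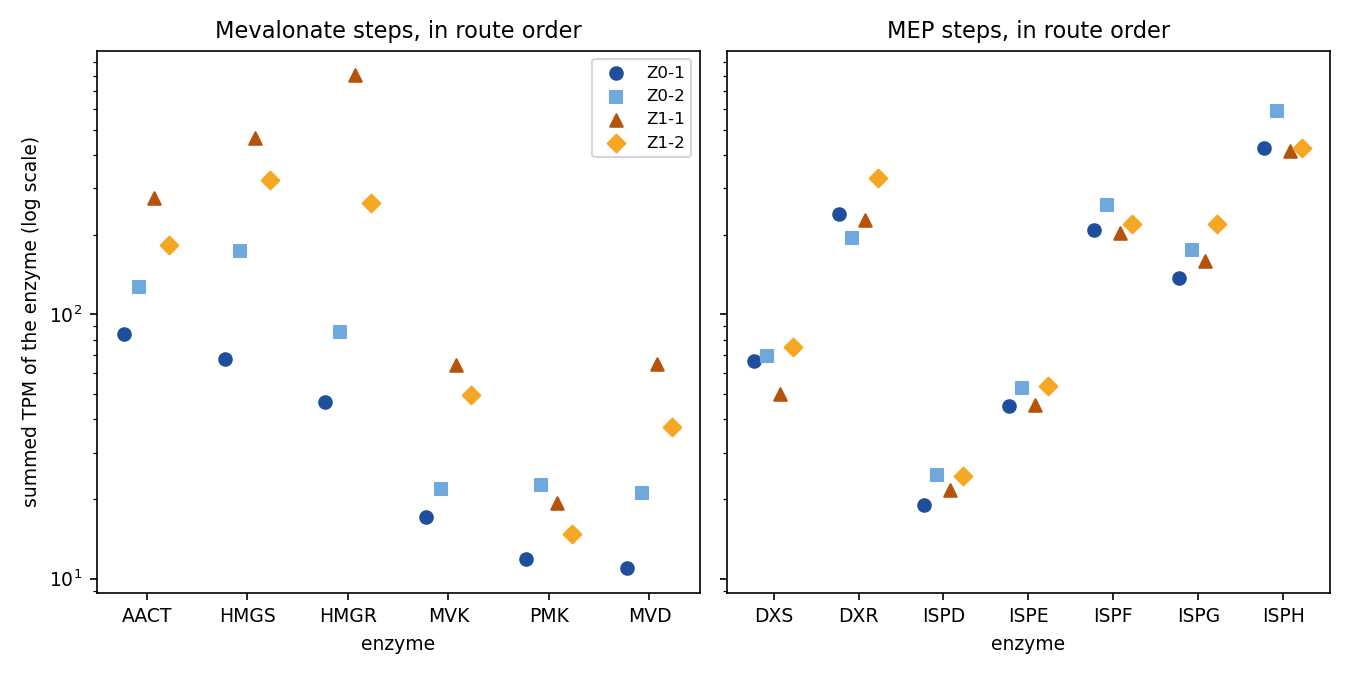
Summed TPM (log axis) of the unigenes of each enzyme in each of the 4 libraries, for the mevalonate route (left) and the MEP route (right), with enzymes in route order. On the left, Z1 lies above Z0 at every enzyme except PMK, and HMGR has the widest gap (ratio of means 8.07, or 4.0 to 12.1 with a library left out). On the right the conditions overlap at every enzyme except ISPH, where they nearly touch. Its sums are 427.49 and 589 TPM in Z0-1 and Z0-2, against 416 and 427.11 in Z1-1 and Z1-2.

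The MEP route was the more abundant of both under natural light, and its summed level differed less between the conditions than between the repeats. Its 20 unigenes summed to 1145 TPM in Z0-1 and 1366 in Z0-2, against 1122 in Z1-1 and 1347 in Z1-2, a ratio of means of 0.983. None was called higher and none lower with limma, where 3.20% and 1.80% of all unigenes were. An unadjusted p under 0.05 with a fold change over 2 was reached by 2 higher and 2 lower ones, where 16.5% and 7.71% of all unigenes were. Of the 20, 10 had a fold change above 0 and 10 below. The conditions overlapped in 11 of the 20, against 40.3% of all unigenes. Set against MEP, the mevalonate sum was 0.208 and 0.331 of it in Z0-1 and Z0-2, against 1.51 and 0.646 of it in Z1-1 and Z1-2. The ratio thus passed 1 in Z1-1 alone, and both Z1 values lay above both Z0 values. A ratio of sums within a library does not depend on how the library was scaled. The MEP sum itself does: with TMM scaling it was 1429 and 1506 in Z0 against 978 and 1123 in Z1.

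The first steps of the MEP route overlapped between the conditions. DXS, deoxyxylulose phosphate synthase, the first enzyme of the route, had its highest level in DN33905_c0_g5 with 33.7 TPM in Z0-1 and 35.9 in Z0-2, against 22.02 in Z1-1 and 26.8 in Z1-2. This unigene was lower in both Z1 libraries, with a log2 fold change of -0.50 ± 0.21 (SE, n = 2 per condition; limma adjusted p = 0.206). DN37001_c0_g1, also DXS, lay the other way with 16.1 and 19.2 TPM in Z0 against 20.1 and 26.1 in Z1, and DN30531_c0_g1 had 16.7 and 14.0 in Z0 against 2.97 and 20.3 in Z1. Summed, DXS ran from 49.8 TPM in Z1-1 to 75.1 in Z1-2, with both Z0 sums in between. DXR, the reductoisomerase that forms MEP, was carried by DN34925_c1_g2 with 164 TPM in Z0-1 and 137 in Z0-2, against 162.5 in Z1-1 and 230.4 in Z1-2. The second DXR unigene, DN33214_c0_g2, had 73.3, 50.3, 63.8 and 95.7 TPM, so that Z1-2 was highest in both.

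The middle steps were represented by a unigene each and differed little. ISPD, the cytidylyl transferase (DN28608_c0_g1), had 19.0 and 24.6 TPM in Z0 against 21.6 and 24.5 in Z1. ISPE, the kinase (DN33076_c0_g1), had 45.1 and 52.8 TPM in Z0 against 45.4 and 53.6 in Z1, a log2 fold change of 0.02 ± 0.22 (SE, n = 2 per condition). ISPF, the cyclodiphosphate synthase (DN29472_c0_g2), had 208 and 259 TPM in Z0 against 203 and 219.7 in Z1. In each of these 3 the first repeat of either condition was the lower one, and the conditions overlapped.

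The last steps, the iron-sulphur enzymes ISPG and ISPH, had ratios of summed means of 1.21 and 0.829. ISPG was carried by DN37657_c0_g1 with 94.9 TPM in Z0-1 and 113 in Z0-2, against 119 in Z1-1 and 147 in Z1-2, and by DN29764_c1_g1 with 39.5, 53.3, 37.7 and 70.1 TPM. ISPH, which releases isopentenyl diphosphate and its isomer, was the most abundant MEP enzyme and was carried by DN30283_c1_g2 with 294 TPM in Z0-1 and 409.5 in Z0-2, against 267 in Z1-1 and 311 in Z1-2. The log2 fold changes of 0.35 ± 0.22 for DN37657_c0_g1 and -0.27 ± 0.25 for DN30283_c1_g2 (SE, n = 2 per condition) had limma adjusted p-values of 0.368 and 0.493. DN35868_c0_g3, a further ISPH, had 93.7 and 129 TPM in Z0 against 100.2 and 93.2 in Z1. The smaller ISPH unigenes DN35868_c0_g7 and DN30283_c1_g5 had 18.6 and 13.4 TPM in Z0-1, 20.5 and 18.4 in Z0-2, 25.8 and 10.8 in Z1-1, and 8.08 and 6.66 in Z1-2. The widest MEP fold changes belonged to short unigenes of low level: DXR DN33782_c0_g6 (245 nt) had 3.18 and 7.05 TPM in Z0 against 0.50 and 0.81 in Z1, ISPG DN39609_c0_g1 (247 nt) had 1.94 and 7.61 in Z0 and was listed at 0 in Z1, and ISPH DN35868_c0_g1 (232 nt) was listed at 0 in Z0 and had 2.05 and 2.52 in Z1.

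The MEP unigenes also stood out in what they matched. The best Nr match lay in the olive family for 13 of the 20 MEP unigenes (65%), for 2 of 23 mevalonate unigenes (8.70%) and for 4 of the 25 isomerase and prenyl diphosphate synthase unigenes with a named organism (16%). Among all 42246 unigenes with an organism the share was 0.843%. The share depends on which olive-family proteins the database held.

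Among the isomerase and prenyl diphosphate synthases, 1 of 26 unigenes was called higher and none lower with limma, where 3.20% and 1.80% of all unigenes were. An unadjusted p under 0.05 with a fold change over 2 was reached by 2 higher and 1 lower ones, where 16.5% and 7.71% of all unigenes were. The conditions overlapped in 13, against 40.3% of all unigenes. The called member was a geranylgeranyl diphosphate synthase (GGPPS), which makes the precursor of carotenoids, gibberellins and the chlorophyll side chain. DN33998_c0_g4 had 43.6 TPM in Z0-1 and 35.7 in Z0-2, against 106 in Z1-1 and 132 in Z1-2, with no overlap and with close repeats. Its log2 fold change was 1.56 ± 0.23 (SE, n = 2 per condition), with an adjusted p of 0.0451 from limma. The call was lost with TMM scaling (1.11, limma adjusted p = 0.0725) and median ratio scaling (1.25, limma adjusted p = 0.0761). The log2 fold change was between 1.40 and 1.72 when a library was left out. DN33998_c0_g3 of the same component, with a *Jasminum sambac* GGPPS as best match but outside the KEGG entry, is counted in the component sum of 83.5 and 80.0 TPM in Z0 against 199 and 213 in Z1. The GGPPS unigenes of the other component were low and varied: DN36147_c0_g1 had 13.9 and 17.3 TPM in Z0 against 8.88 and 13.8 in Z1, DN36147_c0_g3 had 4.63 and 5.91 in Z0 against 1.36 and 2.45 in Z1, and DN36147_c0_g2 had 1.35 and 1.75 in Z0 against 1.83 and 1.89 in Z1.

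**Figure D4:**
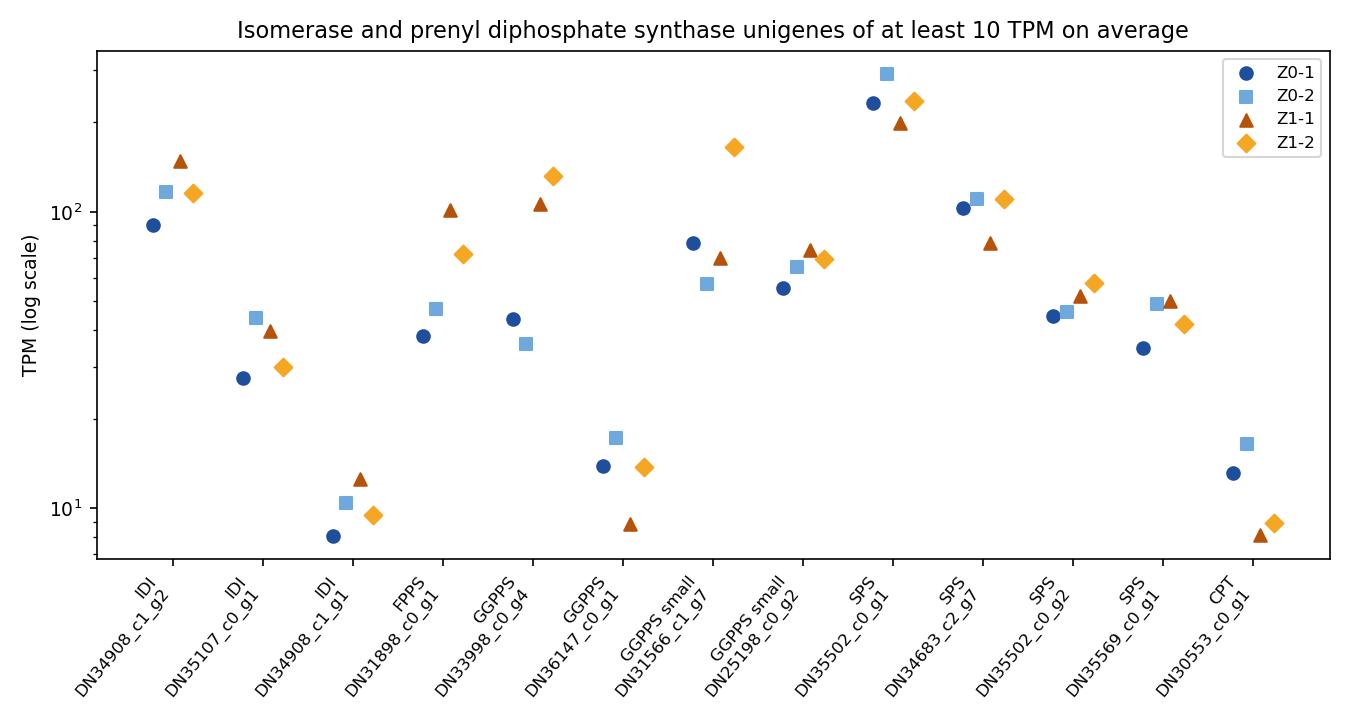
TPM (log axis) of the 13 isopentenyl diphosphate isomerase and prenyl diphosphate synthase unigenes with a mean of at least 10 TPM over the 4 libraries. GGPPS DN33998_c0_g4 and FPPS DN31898_c0_g1 have both Z1 points clearly above both Z0 points (106 and 132 TPM, 101 and 71.9 TPM), CPT DN30553_c0_g1 has both below, and the SPS points lie close together.

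The small subunit that joins GGPPS and turns it towards geranyl diphosphate had a pair of abundant unigenes. DN31566_c1_g7 had 78.4 TPM in Z0-1 and 57.1 in Z0-2, against 69.6 in Z1-1 and 165 in Z1-2, so that Z1-2 alone stood above the rest. DN25198_c0_g2 had 55.2 and 65.2 TPM in Z0 against 74.1 and 69.2 in Z1. Farnesyl diphosphate synthase (FPPS), which makes the precursor of sterols and sesquiterpenes from mevalonate-derived units, was carried by DN31898_c0_g1 with 38.1 TPM in Z0-1 and 47.1 in Z0-2, against 101 in Z1-1 and 71.9 in Z1-2. Its log2 fold change was 0.99 ± 0.27 (SE, n = 2 per condition; limma adjusted p = 0.0963), and 0.54 with TMM scaling. Its neighbour DN31898_c0_g4 overlapped, with 8.28 and 9.70 TPM in Z0 against 9.67 and 7.45 in Z1.

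Isopentenyl diphosphate isomerase, which sets the balance of the isoprene isomers, was carried by DN34908_c1_g2 with 90.5 and 117 TPM in Z0 against 148 and 116 in Z1. The isomerase unigenes DN35107_c0_g1 and DN34908_c1_g1 had log2 fold changes of -0.01 and 0.23, and in all 3 the conditions overlapped. Solanesyl diphosphate synthases (SPS), which build the side chains of plastoquinone and ubiquinone, were the most abundant of the list. DN35502_c0_g1 had 233 TPM in Z0-1 and 292 in Z0-2, against 199.7 in Z1-1 and 236 in Z1-2, and DN34683_c2_g7 had 103, 110.4, 78.2 and 111 TPM. DN35502_c0_g2 and DN35569_c0_g1 had log2 fold changes of 0.27 and 0.15, and only the first of these had both Z1 libraries above both Z0 libraries. The cis-prenyltransferase DN30553_c0_g1, of the dehydrodolichyl diphosphate synthase family that starts dolichol, had 13.2 and 16.5 TPM in Z0 against 8.14 and 8.89 in Z1, a log2 fold change of -0.73 ± 0.23 (SE, n = 2 per condition; limma adjusted p = 0.128). A further SPS unigene, DN26442_c0_g1, had 3.63 TPM in Z1-2 and at most 0.09 elsewhere. It carries the name of a rice protein and was kept only because its Nr entry names no organism.

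Of the 16 protein prenylation and side enzymes, none was called with limma, where 3.20% and 1.80% of all unigenes were called higher and lower. At an unadjusted limma p under 0.05 and over 2-fold, 3 were higher and 0 lower, where 16.5% and 7.71% of all unigenes were. Both Z1 libraries lay above both Z0 libraries in 11, against 41.5% of all unigenes, and below them in 3, against 18.2%. The enzymes that act after the prenyl group is attached lay mostly higher in Z1. FACE1 (DN34816_c1_g1), the protease that trims the end of prenylated proteins, had 24.2 TPM in Z0-1 and 26.0 in Z0-2, against 43.9 in Z1-1 and 44.1 in Z1-2, a log2 fold change of 0.79 ± 0.19 (SE, n = 2 per condition; limma adjusted p = 0.0843). The methylesterases DN33167_c0_g1 and DN36940_c0_g3, which remove the methyl group from the prenylated cysteine, both had a log2 fold change of 0.72, and the methyltransferase DN20588_c0_g1 had 0.53. The conditions did not overlap in any of these. With TMM scaling their log2 fold changes were 0.34, 0.28, 0.28 and 0.17 in the order given, where the median of all unigenes was 0.13. Farnesylcysteine lyase (DN34339_c0_g1), which breaks down the released farnesylcysteine, had 9.68 and 17.4 TPM in Z0 against 9.03 and 8.99 in Z1.

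The transferases that attach the prenyl group varied. The alpha subunit FTA (DN35546_c1_g6), which the farnesyl and geranylgeranyl transferases share, had 20.9 and 29.5 TPM in Z0 against 35.3 and 29.3 in Z1. The beta subunits GGB (DN33373_c0_g2) and FTB (DN37324_c2_g1) had log2 fold changes of 0.63 and 0.45. RGTB1 (DN29031_c0_g3), the beta subunit of the transferase that modifies Rab proteins, lay lower in both Z1 libraries, with 39.9 and 36.1 TPM in Z0 against 23.9 and 25.3 in Z1 (log2 fold change -0.61 ± 0.20, SE, n = 2 per condition; limma adjusted p = 0.133). Phytol kinase 1 (DN29333_c0_g1), which returns phytol from chlorophyll breakdown to use, had 11.3 and 12.1 TPM in Z0 against 7.35 and 9.26 in Z1. The other 3 farnesol or phytol kinases had both Z1 libraries above both Z0 libraries, as did 41.5% of all unigenes. The most abundant of these 3 was DN31201_c1_g2 with 3.01 and 5.12 TPM in Z0 against 9.73 and 9.87 in Z1 (log2 fold change 1.12).

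The largest called rise of any member was in DN35557_c0_g2, named isoprene synthase by Swiss-Prot and matched best by terpene synthase 3 of the olive *Olea europaea*. Isoprene synthase releases isoprene from dimethylallyl diphosphate in plastids, and terpene synthases of this family also make other volatiles, so the product is not given by the name. This unigene of 2025 nt had 0.28 TPM in Z0-1 and 1.03 in Z0-2, against 43.4 in Z1-1 and 38.4 in Z1-2. The Z1 repeats were close to each other and far from Z0. The log2 fold change was 4.70 ± 0.31 (SE, n = 2 per condition), with an adjusted p of 0.0334 from limma. It was 4.40 with TMM scaling, and between 4.36 and 5.03 when a library was left out. The other unigenes of its component carry mostly unrelated names, and the sum over its 7 unigenes had a log2 fold change of 0.80. The chlorophyll-related geranylgeranyl reductase CHLP, which makes the phytyl chain, had 59.3 TPM in Z0-1 and 51.9 in Z0-2, against 88.0 in Z1-1 and 90.8 in Z1-2 (DN27434_c0_g2, log2 fold change 0.68 ± 0.20, SE, n = 2 per condition; limma adjusted p = 0.110), and its second unigene DN25201_c0_g1 had 6.63 and 7.78 in Z0 against 17.5 and 11.1 in Z1.

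Of the 27 members with other names, 20 bear the name of a different protein than the KEGG entry gives, so the entry and the name disagree for them. The most abundant were DN27651_c0_g1 and DN36787_c0_g1, entered as phosphomevalonate kinase and named NADPH-cytochrome P450 reductase, with log2 fold changes of -0.31 and 0.23, and the ferrireductase-named DN34784_c0_g1, entered as DXS, with 60.9 and 74.3 TPM in Z0 against 109.8 and 106 in Z1. The others with a mean of at least 10 TPM in a condition, GTE8 (DN35575_c0_g1 and DN36794_c0_g1), MED32 (DN33303_c0_g1 and DN30014_c1_g8), an rRNA methyltransferase (DN30298_c0_g1), an ascorbate-linked transporter (DN35966_c1_g2) and a GDSL esterase (DN27842_c0_g1), had log2 fold changes from -0.36 for DN27842_c0_g1 to 0.91 for DN35575_c0_g1, none called. A pair of short unigenes among them was called, 1 higher and 1 lower, where 3.20% and 1.80% of all unigenes were. DN33808_c0_g4 (379 nt), named Mediator subunit 32 and entered as a cis-prenyltransferase, had 0 and 1.03 TPM in Z0 against 9.92 and 9.99 in Z1, a log2 fold change of 2.94 ± 0.41 (SE, n = 2 per condition; limma adjusted p = 0.0421), and 0.55 when summed over its component. DN8827_c0_g1 (269 nt), named GDSL esterase and entered as geranylgeranyl reductase, had 4.24 and 5.66 TPM in Z0 and was listed at 0 in both Z1 libraries (limma adjusted p = 0.0368).

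Of the 21 members without a Swiss-Prot name, 1 was called higher and 3 lower, where 3.20% and 1.80% of all unigenes were. The higher one, DN37353_c1_g11 (840 nt), entered as GGPPS and matched by an uncharacterized protein, had 0.07 TPM in Z0-1 and 0.03 in Z0-2, against 14.6 in Z1-1 and 11.8 in Z1-2. Its log2 fold change was 3.75 ± 0.26 (SE, n = 2 per condition), with an adjusted p of 0.0334 from limma. Among those that fell, DN31668_c0_g5 (805 nt), matched by the ISPH of *Picrorhiza kurrooa*, had 12.3 TPM in Z0-1 and 21.6 in Z0-2, against 1.09 in Z1-1 and 1.04 in Z1-2. Its log2 fold change was -3.07 ± 0.34 (SE, n = 2 per condition; limma adjusted p = 0.0360). It is the strongest fall of any member and the only called unigene with an MEP enzyme as best match, yet its level was small beside the 427 and 589 TPM of the named ISPH unigenes in Z0. The other unigenes of its component are B-box zinc finger proteins or unnamed, and summed over the component the log2 fold change was 0.82, the opposite direction. DN31562_c0_g2 (815 nt), matched by solanesyl diphosphate synthase 3, had 9.84 and 8.95 TPM in Z0 against 2.13 and 2.35 in Z1 (log2 fold change -1.68 ± 0.23, SE, n = 2 per condition; limma adjusted p = 0.0410), and -0.77 when summed over its component. DN37279_c0_g2 (233 nt), matched by a GDSL esterase, had 4.59 and 3.86 TPM in Z0 and was listed at 0 in both Z1 libraries (limma adjusted p = 0.0383). Summed over the pair of unigenes in its component the direction turned, with 12.4 and 16.4 TPM in Z0 against 16.8 and 15.4 in Z1 (log2 fold change 0.16).

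**Figure D5:**
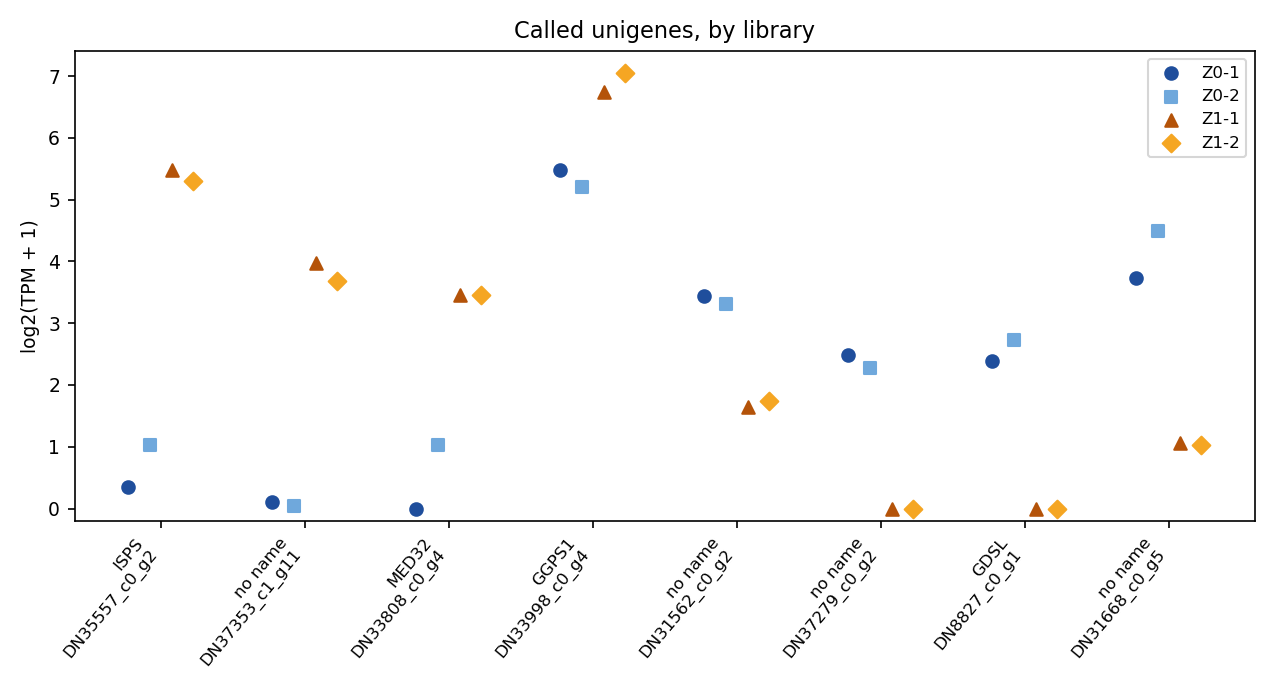
Level on the log2(TPM + 1) scale of the 8 called members in each of the 4 libraries. In each unigene the Z0 pair and the Z1 pair are apart and the repeats are closer to each other than to the other condition. DN37279_c0_g2 and DN8827_c0_g1 are listed at 0 in both Z1 libraries.

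The members without a name that reached a mean of 10 TPM in a condition and were not called were DN28649_c0_g1, DN34854_c0_g2, DN25134_c0_g1 and DN30037_c0_g1. DN28649_c0_g1, entered as a cis-prenyltransferase, had 22.1 TPM in Z0-1 and 19.4 in Z0-2, against 47.0 in Z1-1 and 51.8 in Z1-2, with a log2 fold change of 1.21 and an adjusted p of 0.0509 from limma. DN34854_c0_g2, matched by the Nus1 subunit of the same enzyme complex, had 6.25 and 12.7 TPM in Z0 against 13.9 and 13.2 in Z1. DN25134_c0_g1 and DN30037_c0_g1 had log2 fold changes of 0.30 and 0.54. Of the 57 members that were neither called, nor the most abundant of their enzyme, nor at that level, only some were given. These were chosen beside a described component, or after their values, names or Nr entry were seen.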

How the data were processed

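Leaf RNA of *S. oblata* was measured in 2 libraries per condition. The authors assembled the reads with Trinity 2.4.0 and deposited TPM values per unigene, with unigene length and annotation, in 1 table. The submitters' processing notes also name cutadapt, FastQC, Salmon and edgeR, with no version in the sources used here. Columns were mapped to conditions by their names, as the labels list 1 sample per condition.

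From this table log2(TPM + 1) was fitted with limma 3.58.1 in R 4.3.3 (trended prior, no covariate) over all 73159 unigenes, with no filter, and Benjamini-Hochberg adjustment over all of them. Calls required a fold change beyond 2 and an adjusted p below 0.05. The fit was tested on simulated data. Tables and plots were made with Python 3.11.15, pandas 2.3.3 and matplotlib 3.10.9. TPM hold no read counts, so count models could not be used and the precision set by depth is unknown. How Salmon split reads between near-identical unigenes cannot be told from TPM.

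The text names the most abundant member of each enzyme, each called member and each member with a mean of at least 10 TPM in either condition. A few lower ones were picked beside their component or for their values or names, after their values were seen. The members, enzyme lists and rules were chosen with earlier results of these data known. Enzyme names come from Swiss-Prot. Alternatives were pseudocounts of 0.1 and 5, a filter of at least 5 TPM in 2 libraries, median ratio and TMM scaling (trimming 30% of M and 5% of A values), the repeat number as a block, each library left out in turn, unigenes without rice or carlavirus matches, TPM summed per Trinity component, no fold threshold and an unadjusted p. With a library left out, the lone library of its condition is assumed to vary like the others. No sequences were used.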

Additional observations from a re-analysis of the deposited data

How the results depend on the processing

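Against 4 members called higher and 4 lower, a pseudocount of 0.1 gave 2 and 1, where 354 and 199 of all 73159 unigenes were called. A pseudocount of 5 gave 0 and 0, and 0 and 0 of all unigenes too. A filter of at least 5 TPM in 2 libraries gave 17 and 2, where 18.2% and 6.48% of those tested were called. Leaving out rice-matched unigenes gave 11 higher, where 8.20% were. Summing per Trinity component gave 0 and 0, where 4 and 1 of all 30459 components were called. An unadjusted p under 0.05 from limma gave 33 and 7, where 16.5% and 7.71% of all unigenes were. Of the 8 called members, 7 stayed called with TMM and with median ratio scaling, 6 with the repeat number as a block, 3 with a pseudocount of 0.1 and 8 without rice-matched unigenes. For the mevalonate list (0 called higher in the fit above), the filter gave 10, where 18.2% of the 20230 unigenes tested were called higher. Of these 10, DN35688_c0_g3 and DN31467_c0_g4 passed the filter through Z1 only. Leaving out rice-matched unigenes gave 4, where 8.20% were. The replicate block gave 2 (both HMGR, DN36191_c0_g1 and DN35551_c0_g1), where 2512 of all 73159 unigenes were called higher. An unadjusted p gave 17, where 16.5% of all unigenes were. The median log2 fold change of the mevalonate list, 1.40, was 0.91 with a pseudocount of 5, 1.03 with TMM scaling and 1.03 to 1.72 with a library left out. For the MEP list (0 and 0), leaving out rice-matched unigenes gave 1 higher, and an unadjusted p 2 higher and 2 lower. The single prenyl diphosphate synthase called higher was lost (0) with pseudocounts of 0.1 and 5, median ratio and TMM scaling and the replicate block. It was also lost on summing per component and on leaving out carlavirus-matched unigenes. With a pseudocount of 5 or with components summed, none or nearly none of the whole table was called either. An unadjusted p gave 2 higher and 1 lower in the list of isomerase and prenyl diphosphate synthases. TMM scaling gave medians of 0.024 for all members, -0.52 for the MEP list and -0.19 for the isomerase and prenyl diphosphate synthases. The ratio of summed TPM, 0.983 for MEP and 1.19 for the isomerase and prenyl diphosphate synthases, was 0.796 and 0.959 with median ratio scaling, 0.716 and 0.864 with TMM scaling, and 0.805 and 0.971 without carlavirus-matched unigenes, so the prenyl ratio turned from above 1 to below it. For the mevalonate list it was 3.02 with median ratio scaling, 2.76 with TMM scaling and 3.075 without carlavirus-matched unigenes. The lowest value was 2.52, without Z1-1. As each Z1 sum of that list lay above both Z0 sums, leaving out a library could not bring the ratio below 1. Summed per component, DN31668_c0_g5 (0.82) and DN37279_c0_g2 (0.16) reversed, since other unigenes of the component enter the sum. The cause of the other shifts was not tested. The repeat numbers do not pair the libraries in the labels, and deviations of same-numbered repeats correlated at -0.19 over 18357 unigenes. No read depth is recorded in TPM, so what depth limits cannot be stated.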

Other observations

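The 4 members with mitochondrial acyl-CoA enzyme names, set apart from the cytosolic mevalonate list, had a pattern of their own. The acetyltransferase DN10367_c0_g1 had 4.61 TPM in Z1-1 and was listed at 0 in the other 3 libraries. DN25335_c0_g2, named mitochondrial hydroxymethylglutaryl-CoA synthase, an enzyme known from animal ketone body synthesis, had 5.83 TPM in Z1-1, was listed at 0 in Z1-2 and had 0.08 and 0.18 TPM in Z0. DN9177_c0_g2 and DN10367_c0_g2 had 4.72 and 2.17 TPM in Z1-1, and were listed at 0 in Z1-2. None of the 4 was called.

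The 30 rice-matched unigenes left out of the pathway summed to 2.56 TPM in Z0-1 and 2.64 in Z0-2, against 0 in Z1-1 and 178 in Z1-2. These sums follow the split of rice-matched unigenes in the whole table, which reached 32956 TPM in Z1-2 and at most 2955 TPM in the other libraries.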
